A study of Mus musculus with 8 samples.

Results

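The Notch genes described here are the receptors Notch1 and Notch2, the ligands Dll1, Dll4 and Jag1, the receptor-modifying enzyme Lfng, the feedback inhibitor Nrarp, and the Hes family members Hes1, Hes5 and Hes6. They were chosen by name: a probe counted if its gene name in a day 3 scanner file equalled 1 of the 10 symbols or an older alias. This gave 14 of the 41174 probes, and the 10 genes of 27573 gene names on the array. The series holds 8 Agilent mouse arrays, each hybridised with 2 RNAs that carry the dyes Cy5 and Cy3. On 4 of them, small intestinal epithelial cells sorted as GFPhi were set against GFPlo cells of Lgr5-EGFP-ires-CreERT2 mice, in which GFP reports the promoter of the stem cell gene Lgr5. There were 2 such sorts, each a pool of 3 mice. On the other 4, intestinal epithelium of Ah-Cre/Ascl2floxed/floxed mice was set against that of Ah-Cre/Ascl2floxed/wt controls, 3 and 5 days after induction of the Cre. The controls thus carried the Ah-Cre transgene and 1 floxed Ascl2 copy too, although the sample titles call them wildtype, and how many animals a deletion RNA came from was not given in the sources used here. Ascl2 is a basic helix-loop-helix transcription factor of the crypt base. Each pair of RNAs was hybridised once in either dye orientation, and since both arrays share both RNAs they count as 1 replicate. Each comparison therefore rests on 2 RNA pairs.

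Notch receptors are activated by ligands on a neighbouring cell. Proteases then release the receptor's intracellular part, which joins the DNA-binding protein RBPJ in the nucleus and switches on targets such as Hes1, Hes5 and Nrarp. In the intestinal crypt, Notch activity acting through the repressor Hes1 holds down Atoh1, the factor that commits cells to the secretory lineages, while secretory cells present the ligands Dll1 and Dll4 to their neighbours. Lfng adds sugars to Notch receptors and so changes their response to ligands, Nrarp dampens the intracellular complex, and Hes6 antagonises Hes1.

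The labels were first checked on the genes that define the groups. Lgr5 was 5.05-fold higher in GFPhi than in GFPlo cells, with log2 ratios of 2.00 to 2.66 over the 4 arrays, and Ascl2 was 2.72-fold lower in the deleted epithelium, with log2 ratios of -1.31 to -1.74. The epithelial markers Epcam, Cdh1, Vil1, Krt8, Krt18 and Krt19 were all detected, and none was below background in both RNAs of any pair. Of the non-control spots, 55.0% to 66.9% were well above background in the RNAs of the deletion arrays and 35.5% to 44.6% in those of the sort arrays. A gene entered the test of a comparison if its brightest probe had a signal well above background for 1 or both RNAs throughout the arrays, which held for 9 of the 10 Notch genes in the sorts and all 10 in the deletion. Notch2 was not well above background in any sorted RNA. Every RNA pair was on a slide of its own, so slide and RNA pair cannot be told apart.

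The bases before the RefSeq start sites (assembly GRCm38.p6) are shown for the members whose upstream sequence held a motif and whose RNA is described in most detail below. Promoters were listed for 9 of the 10 genes, as 11 start sites, and Hes1 was not matched. The 250 bases upstream of each start were searched on both strands for the RBPJ motif GTGGGAA and for CAGCTG, an E-box of the type that Ascl proteins bind. Neither motif overlaps the other. Of 32851 mouse promoters of the same length, 1779 (5.42%) held the RBPJ motif and 4271 (13.0%) the E-box. Hes5 held 2 RBPJ matches, which start 226 bases before the start site on the minus strand of the gene and 83 bases before it on the plus strand. Lfng held 1 RBPJ match, 109 bases before the start, and an E-box 146 bases before it. An E-box lay 132 bases before 1 of the 2 Dll1 starts, 82 bases before the Jag1 start, and 150 and 171 bases before the 2 Hes6 starts. Neither motif was found in the windows of Notch1, Notch2, Dll4 or Nrarp. The matches are shown in capitals, 5′ to 3′ on the strand of the gene.
Hes5, chr4:154960673-154960922, plus strand: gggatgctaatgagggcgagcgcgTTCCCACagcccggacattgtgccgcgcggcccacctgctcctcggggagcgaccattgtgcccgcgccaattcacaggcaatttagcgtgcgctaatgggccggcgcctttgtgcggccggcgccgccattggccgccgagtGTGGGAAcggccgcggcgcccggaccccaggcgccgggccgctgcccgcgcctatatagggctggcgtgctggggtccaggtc
Lfng, chr5:140607091-140607340, plus strand: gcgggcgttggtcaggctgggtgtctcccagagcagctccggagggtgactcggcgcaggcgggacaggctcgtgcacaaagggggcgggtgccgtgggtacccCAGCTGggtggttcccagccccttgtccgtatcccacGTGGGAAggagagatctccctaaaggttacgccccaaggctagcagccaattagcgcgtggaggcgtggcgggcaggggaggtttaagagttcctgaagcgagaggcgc
Dll1, chr17:15376933-15377182, minus strand: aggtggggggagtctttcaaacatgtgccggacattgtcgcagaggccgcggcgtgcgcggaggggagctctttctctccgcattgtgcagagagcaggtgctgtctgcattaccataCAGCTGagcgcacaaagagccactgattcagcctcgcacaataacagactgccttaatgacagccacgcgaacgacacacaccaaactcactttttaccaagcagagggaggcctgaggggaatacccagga
A match describes the letters in the window and was not tested as a binding site.

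**Figure D1:**
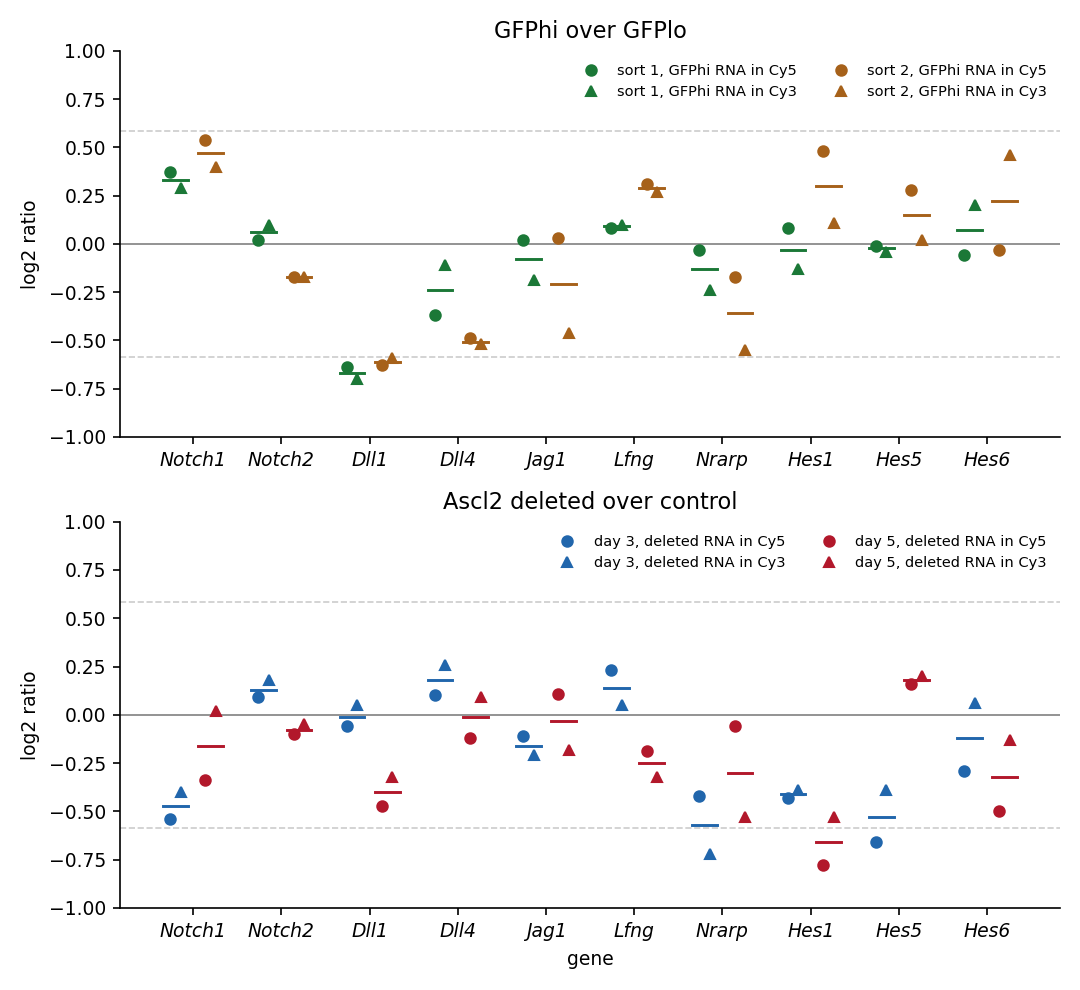
Log2 ratio of each of the 10 Notch genes (x axis) on each array, for GFPhi over GFPlo (upper panel) and Ascl2 deleted over control (lower panel). Points are single arrays, with the shape giving the dye of the GFPhi or deleted RNA, short lines are means of both arrays of an RNA pair, and dashed lines mark 1.5-fold. Dll1 lies below -0.58 on all 4 sort arrays, Hes1 lies below 0 on all 4 deletion arrays, and Hes5 lies below 0 at day 3 and above 0 at day 5.

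In the sorted cells, the ligands Dll1 and Dll4 were lower and the receptor Notch1 was higher in GFPhi than in GFPlo cells on every array. The target Nrarp was also lower on every array, and Hes1, Hes5 and Hes6 had no common sign. No gene in the whole table passed the adjusted threshold of 0.05 in this comparison (0% of 10463 genes; limma with Benjamini-Hochberg adjustment), and 3 of the 9 Notch genes tested, Dll1, Dll4 and Notch1, had an unadjusted limma p under 0.05, against 10.2% of all genes. By sign alone, 2 of the 9 were higher on all 4 arrays, as were 17.6% of all genes with 4 values. The 2 were Notch1 and, by its brighter probe only, Lfng. Lower on all 4 were 3 of the 9 (Dll1, Dll4 and Nrarp), as were 16.6% of all genes. Only Dll1 among the 9 was at least 1.5-fold lower on all 4 arrays, a pattern shown by 1.12% of all genes. Its smallest ratio of -0.59 only just passed, and whether it passed depended on the processing. None of the 9 was at least 1.5-fold higher on all 4, which 0.569% of all genes were. The median over the 9 was 0.06 on the log2 scale, beside 0.01 over all genes tested.

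Dll1, the ligand named for its Drosophila counterpart Delta, is read by a probe at chr17:15072622-15072681 on the minus strand of mm8, the build of the file's coordinates. Its log2 ratios were -0.64 and -0.70 in sort 1 and -0.63 and -0.59 in sort 2, where the first value of each pair has the GFPhi RNA in Cy5. All 4 arrays thus lay within 0.11 of each other with this processing. Under the other ways of computing the ratios Dll1 stayed below 0 on all 4 arrays, but not always by 1.5-fold. Without background subtraction it ran from -0.53 to -0.63, and with median centring from -0.23 to -1.24. With normexp fitted on all spots the sort means were -0.67 and -0.22. Agilent's processed signals gave -0.91 and -0.73, and there all 4 arrays passed 1.5-fold. On the log2 intensity scale after normalization between arrays, GFPhi cells had a level of 9.64 in sort 1 and 9.73 in sort 2, and GFPlo cells 10.31 and 10.34. The mean ratio of -0.64 (SE 0.13, n = 2 RNA pairs), or 1.56-fold lower in GFPhi, had an adjusted p of 0.322 in the limma fit of all 4 RNA pairs, in which the spread also includes the difference between the 2 deletion days. With the sorts alone, a fit that called 17.8% of all genes, the adjusted p was 8.83e-04. With single arrays in the fit, blocked by RNA pair, which called 2.04% of all genes, it was 0.0178, within a range of 8.83e-04 to 1 over all alternatives.

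Dll4, the second Delta-type ligand, read -0.37 and -0.11 in sort 1 and -0.49 and -0.52 in sort 2. The sign was the same on each array, but its size varied between the dye orientations of sort 1. Its mean of -0.38 (SE 0.12, n = 2 RNA pairs) had an adjusted limma p of 0.436. With the sorts alone, a fit that called 17.8% of all genes, the adjusted p was 0.02 (range over alternatives 0.02 to 1). With Agilent's own processed signals, which differ in background correction and normalization, Dll4 was -1.51 and -0.12 in sort 1 and -1.47 and -1.11 in sort 2. With normexp fitted on all spots the sort means were -0.24 and -0.04. The series matrix was blank for Dll4 in sort 1 and in sort 2 held only the array with GFPhi in Cy5, at -1.34. Jag1, a ligand of the Serrate type, showed no common direction. Its values were 0.02 and 0.03 with GFPhi in Cy5, but -0.19 and -0.46 with GFPhi in Cy3, so the dye orientation separated the arrays more than the sort did. The second Jag1 probe was not well above background on any of the 8 arrays.

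Notch1, the receptor, was higher in GFPhi cells by 0.37 and 0.29 in sort 1 and by 0.54 and 0.40 in sort 2. Its second probe, which abuts the first on chr2 (both together 26281261 to 26281378 in mm8), gave 0.32, 0.28, 0.41 and 0.28 on the same arrays. Both probes were therefore on the same side on every array, although neighbouring probes share their transcript and are no independent measurement. The mean of the brighter probe was 0.40 (SE 0.12, n = 2 RNA pairs), or 1.32-fold, with an adjusted limma p of 0.432. With the sorts alone, a fit that called 17.8% of all genes, the adjusted p was 0.0106 (range over alternatives 0.0106 to 1). GFPhi levels were 9.44 and 8.64 in the 2 sorts and GFPlo levels 9.11 and 8.17 on the log2 intensity scale, so that the sorts differed from each other by more than the populations did, and GFPhi stood above GFPlo within each. With processed signals Notch1 was 0.56 and 0.81 in the 2 sorts, and with normexp fitted on all spots it was 0.32 and 0.06. Notch2, the other receptor of crypt cells, was not tested here because neither population's RNA was well above background.

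Among the genes that tune or report Notch signals, Lfng was 0.08 and 0.10 in sort 1 and 0.31 and 0.27 in sort 2, higher on each array but by little. A second Lfng probe, well above background in both RNAs on all 4 arrays, read -0.03 and 0.04 in sort 1. In sort 2 that probe read 0.04 and 0.02, so it had no common sign. Nrarp, a direct Notch target that feeds back on the pathway, was -0.03 and -0.24 in sort 1 and -0.17 and -0.55 in sort 2. Every Nrarp array lay below 0, but the arrays with GFPhi in Cy3 were further below than their dye-swapped partners by 0.21 and 0.39. Hes1, the main intestinal effector, was 0.08 and -0.13 in sort 1 and 0.48 and 0.11 in sort 2, with a mean of 0.14 and a 95% interval of -0.23 to 0.50. The Hes5 values were -0.01, -0.04, 0.28 and 0.02, with an interval of the mean of -0.47 to 0.59. Hes6 was below 0 with GFPhi in Cy5 (-0.06 and -0.03) and above 0 with GFPhi in Cy3 (0.20 and 0.46), and its second probe showed the same split, at -0.08 and -0.14 against 0.10 and 0.25. Thus Dll1, Dll4, Notch1, Nrarp and the brighter Lfng probe kept 1 sign over the 4 sort arrays. Jag1, the 3 Hes genes and the second Lfng probe did not.

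After Ascl2 deletion, the Notch targets Hes1 and Nrarp were lower than in the controls on all 4 arrays, and none of the 10 genes was higher on all 4. No gene in the whole table passed the adjusted threshold for the mean of both days (0% of 15844 genes by limma), and 2 of the 10 Notch genes, Hes1 and Nrarp, had an unadjusted limma p under 0.05, against 9.57% of all genes. Being lower on all 4 arrays was shared with 12.9% of all genes with 4 values, and being higher on all 4, as 0 of the 10 were, with 13.1%. Among only 10 genes, counts of 2 and 0 are near these shares. None of the 10 was at least 1.5-fold lower or higher on all 4 arrays, which held for 0.421% and 0.465% of all genes. The median over the 10 was -0.19, and over all genes tested it was 0.00 to 2 decimals.

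Hes1 is read by a probe on chr16 whose listed span in mm8 runs from 29985644 to 29985939 on the plus strand. Its log2 ratios were -0.43 and -0.39 at day 3 and -0.78 and -0.53 at day 5, where the first value of each pair has the deleted RNA in Cy5. On the log2 intensity scale the deleted epithelium stood at 8.25 and 8.17 and the controls at 8.66 and 8.83 at days 3 and 5. The mean of -0.54 (SE 0.13, n = 2 RNA pairs) corresponds to 1.45-fold lower in the deleted epithelium, with a 95% interval of -0.90 to -0.17 and an adjusted limma p of 0.444. Fits with a single day hold 1 RNA pair of the deletion and take their spread from the sorts alone, and they called 37.5% of all genes for day 3 and 13.0% for day 5. In them the adjusted p of Hes1 was 0.0387 for day 3 (-0.41) and 0.0111 for day 5 (-0.66), within a range of 0.0111 to 0.987 over all alternatives. Hes1 was the 1 member that stayed below 0 on all 4 arrays under all 5 other ways of computing the ratios (no background subtraction, Agilent's processed signals, the series matrix, median centring, and normexp fitted on all spots).

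Nrarp (probe at chr2:25004527-25004586, plus strand, mm8) was -0.42 and -0.72 at day 3 and -0.06 and -0.53 at day 5. All 4 values were negative, and the array with deleted RNA in Cy5 at day 5 was close to 0. Its mean was -0.43 (SE 0.13, n = 2 RNA pairs; limma adjusted p = 0.465). In the fit with day 3 alone, where 37.5% of all genes were called on 1 RNA pair, the value was -0.57 (adjusted p = 0.00614, range over alternatives 0.00614 to 0.987). With median centring in place of loess, which leaves dye trends over intensity in place, the same day 5 array read 0.41 and Nrarp was no longer on 1 side.

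Notch1 was lower in the deleted epithelium on 3 of 4 arrays, at -0.54 and -0.40 on day 3 and -0.34 on day 5, and the other day 5 array read 0.02. Its second probe was below 0 on all 4, at -0.27 and -0.42 on day 3 and at -0.16 and -0.07 on day 5. The mean of the brighter probe was -0.31 (SE 0.12, n = 2 RNA pairs; limma adjusted p = 0.522), and day 3 alone, with 1 RNA pair, gave -0.47. Notch2, at 0.09 and 0.18 on day 3 and at -0.10 and -0.05 on day 5, had a mean of 0.03 with a 95% interval of -0.29 to 0.35. The 2 receptors therefore differed in their values at day 3, where Notch1 lay below 0 and Notch2 slightly above it, but this difference between probes was not tested.

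For the ligands, Dll1 was -0.06 and 0.05 at day 3 and -0.47 and -0.32 at day 5. The day 3 arrays thus lay on both sides of 0 and the day 5 arrays clearly below it, and in the fit with day 5 alone, where 13.0% of all genes were called on 1 RNA pair, the adjusted limma p was 0.0487 (range over alternatives 0.0487 to 0.987). Dll4 read 0.10 and 0.26 at day 3 and -0.12 and 0.09 at day 5. Jag1 lay between -0.21 and 0.11 on all 4 arrays, with a 95% interval of the mean of -0.37 to 0.18. Hes6 was -0.29 and 0.06 at day 3 and -0.50 and -0.13 at day 5. Here too the array with deleted RNA in Cy5 gave the lower value on both days. The second Hes6 probe showed this split at day 3 (-0.18 and 0.02) but not at day 5 (-0.33 and -0.36).

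**Figure D2:**
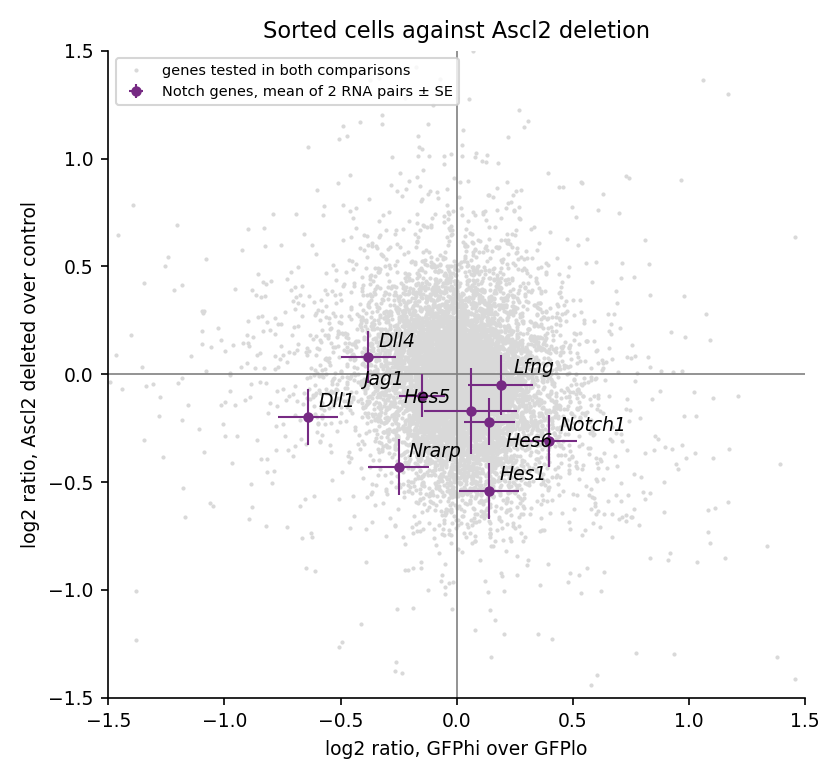
Mean log2 ratio of the 2 sorts (x axis, GFPhi over GFPlo) against the mean of the 2 deletion days (y axis, Ascl2 deleted over control) for the 9 Notch genes tested in both comparisons, with bars of 1 SE from the limma fit. Grey points are 10245 genes tested in both, and 54 genes beyond 1.5 on either axis are not drawn. Dll1 lies at the left edge of the Notch genes, Hes1 at the bottom and Notch1 at lower right, and all lie within the cloud of other genes.

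The plot of sorts against deletion sets the mean ratios of the 9 members side by side. Above 0 in the sorts and below 0 after deletion were Notch1 (0.40 and -0.31), Hes1 (0.14 and -0.54), Hes6 (0.14 and -0.22), Hes5 (0.06 and -0.17) and Lfng (0.19 and -0.05). Below 0 in both were Dll1 (-0.64 and -0.20), Nrarp (-0.25 and -0.43) and Jag1 (-0.15 and -0.10). Dll4 was -0.38 in the sorts and 0.08 after deletion. These are signs of means, and the share of all genes with the same signs was not counted. Hes5 was -0.53 at day 3 and 0.18 at day 5, and Lfng was 0.14 and -0.25. In the sorts Hes1, Hes5 and Hes6 had no common sign over the arrays. The comparisons use different mice and arrays, and a difference between them was not tested.

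Hes5 was the 1 member called for a difference between the 2 days of the deletion. It was -0.66 and -0.39 at day 3 but 0.16 and 0.20 at day 5. In levels, Hes5 stood at 6.57 in deleted and 7.10 in control epithelium at day 3, and at 7.08 and 6.90 at day 5, all on the log2 intensity scale. The difference, day 5 minus day 3, was 0.71 (SE 0.17, 95% interval 0.33 to 1.08; limma adjusted p = 0.0122). Over all genes tested, 29.9% of 15584 were called for this difference, 17.0% as higher at day 5 and 12.9% as lower, and 1 of the 10 Notch genes was. Since each day has 1 RNA pair, the spread behind this test comes from the 2 sorts and holds no replicate of a day. The call was lost with Agilent's processed signals (1.24, adjusted p = 0.238), with median centring (0.74, adjusted p = 0.105) and with either dye orientation alone (adjusted p = 0.0634 and 0.0745), in a range of 6.22e-04 to 0.238.

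Not called were Lfng and Dll1, which had the next largest differences. Lfng read 0.23 and 0.05 on day 3 and -0.19 and -0.32 on day 5, a difference of -0.40 (SE 0.17; limma adjusted p = 0.112). Notch2 lay on the same 2 sides with a difference of -0.21. Both arrays of day 3 below 0 and both of day 5 above it, as for Hes5, was seen for 14.1% of all genes, and the opposite order, as for Lfng and Notch2, for 14.4%. With processed signals Lfng was 0.36 at day 3 and -0.64 at day 5, and with normexp fitted on all spots it was 0.14 and -0.17. Its second probe was not well above background in any RNA of the deletion arrays. For Dll1 the difference was -0.39 (limma adjusted p = 0.0952).

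**Figure D3:**
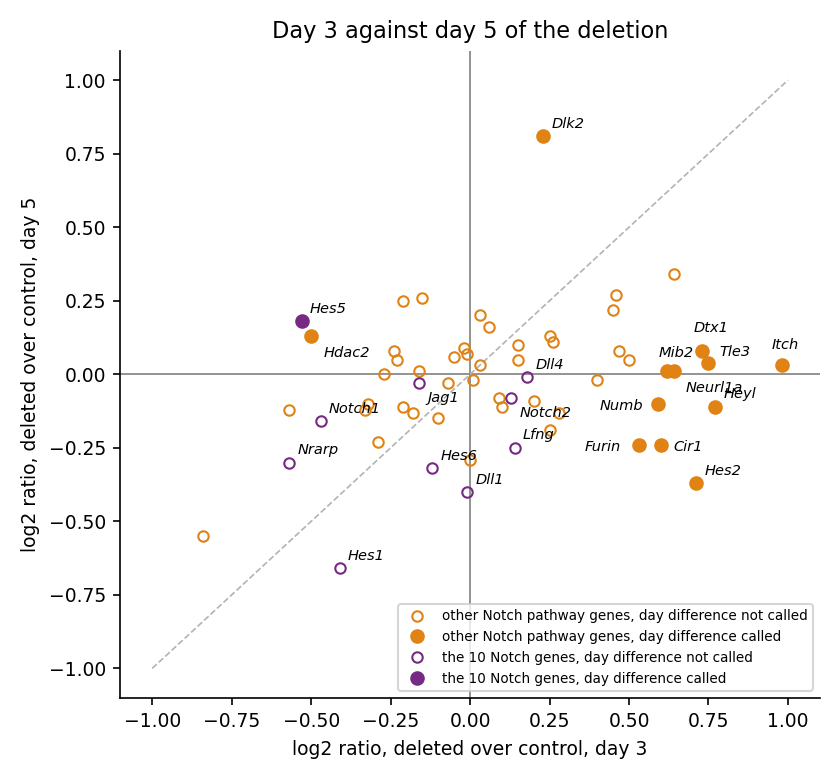
Log2 ratio of deleted over control at day 3 (x axis) against day 5 (y axis), each the mean of 2 dye-swapped arrays, for the 10 Notch genes (purple) and the other Notch pathway genes tested (orange). Filled points were called for the day difference by limma, and the dashed line marks equal values. Hes5 is the filled purple point at -0.53 and 0.18, and 10 of the 12 filled orange points lie to the right, between 0.53 and 0.98 at day 3 and between -0.37 and 0.08 at day 5.

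Beyond the 10 members, 63 other genes of the pathway in 8 lists were examined, of which 62 had a probe (Dtx3l was not matched). In the sorts 30 of them were tested, of which 0 passed the adjusted and 3 the unadjusted limma threshold of 0.05, and 5 were higher and 4 lower on all 4 arrays. Over all genes, 10.2% passed the unadjusted threshold, and of those with 4 values 17.6% were higher and 16.6% lower. Among the 30, Psen2, Mib1, Dtx2 and Crebbp had blank arrays and could not count as higher or lower on all 4. These sign counts are thus somewhat understated beside the shares, and a difference from the shares was not tested. Dtx4, a Deltex-type ubiquitin ligase that acts on Notch receptors, was the 1 gene at least 1.5-fold apart on all 4. Such a gap was seen upward for 0.569% of all genes and downward for 1.12%. Dtx4 read 0.70 and 0.65 in sort 1 and 0.90 and 0.66 in sort 2, with a mean of 0.73 (SE 0.10, n = 2 RNA pairs; limma adjusted p = 0.246). The 10 co-repressors tested had a median of 0.05 and the 6 processing proteases of -0.08, close to the 0.01 of all genes.

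In the deletion 51 of the 62 were tested, of which 0 passed the adjusted and 4 the unadjusted limma threshold, 7 were higher and 8 lower on all 4 arrays, and none was 1.5-fold apart on all 4. The shares over all genes were 9.57%, 13.1% and 12.9%, where 13.1% and 12.9% are over genes with 4 values. Among the 51, Psenen, Neurl1a, Itch, Fbxw7, Ncor1, Hdac2 and Tle4 had blank arrays and could not count as higher or lower on all 4. The sign counts are thus somewhat understated beside the shares, and a difference from the shares was not tested. Singled out after the values were seen, Hdac1, a histone deacetylase of repressor complexes, came closest at -0.98 and -0.71 on day 3 and -0.65 and -0.46 on day 5. For the day difference 50 were tested, 2 were called higher at day 5 and 10 lower, beside 17.0% and 12.9% of all genes. The 12 called are a smaller share of the 50 than the 29.9% called over all genes. Hes2, another member of the Hes family, was the 1 gene with days at least 2-fold apart, a pattern that was not counted over all genes. It read 0.75 and 0.68 at day 3 and -0.47 and -0.27 at day 5, a difference of -1.08 (SE 0.16; limma adjusted p = 0.00156). The other 9 called lower, named because they passed, were the relative Heyl, the co-repressors Cir1 and Tle3, the ubiquitin ligases or endocytic adaptors Itch, Mib2, Dtx1, Neurl1a and Numb, and the protease Furin. The Delta-like protein Dlk2 (0.59) and the deacetylase Hdac2 (0.63) were higher at day 5. For Itch day 3 and for Neurl1a and Hdac2 day 5 had a value on 1 array only. Of these 12 genes, 7 were not tested in the sorts, from which the spread of this test comes.

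Among 5 secretory-lineage factors tested in the sorts, 4 were lower in GFPhi cells on all 4 arrays. Neurog3, the other, was blank on 1 array and lower on the 3 with a value (-0.46, -1.25 and -1.26). Of the 5, 0 passed the adjusted limma threshold (5 at an unadjusted p under 0.05). Over all genes, 16.6% of those with 4 values were lower on all 4 arrays, and 10.2% had an unadjusted limma p under 0.05. Spdef, a goblet and Paneth cell factor, was -1.57, -1.43, -1.45 and -1.42 on the 4 sort arrays, and Gfi1, a factor of the same lineages, -0.75, -0.83, -0.77 and -0.69, with adjusted limma p values of 0.128 and 0.237. Atoh1 was not well above background in GFPhi RNA on any of the 4 arrays and well above it in GFPlo RNA on all 4. Its mean log2 ratio was -0.35, or 1.27-fold higher in GFPlo, with a 95% interval of -0.64 to -0.06 (limma adjusted p = 0.432). This fold is an estimate and no lower limit, since the GFPhi signal was not well above background.

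**Figure D4:**
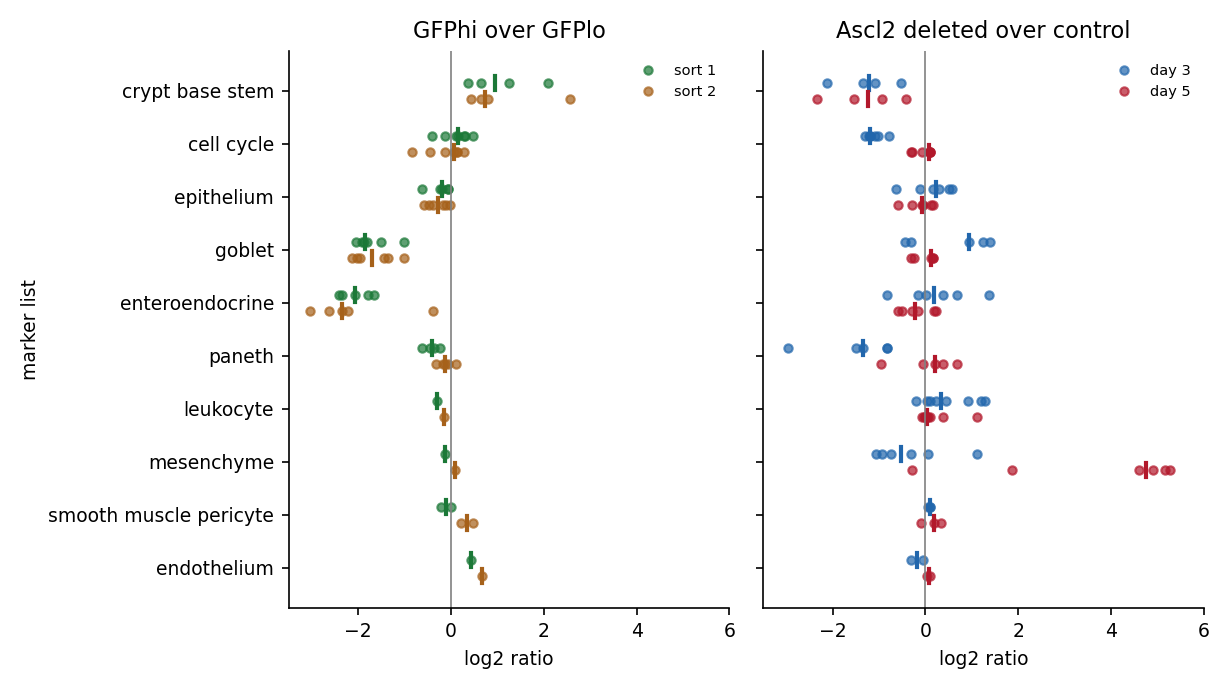
Log2 ratios of marker genes (points; vertical ticks are medians) by list (y axis) in each RNA pair, for GFPhi over GFPlo (left) and Ascl2 deleted over control (right), over markers tested in that comparison. Crypt base genes are above 0 in both sorts and below 0 on both days, cell cycle genes are near -1.19 at day 3 only, and mesenchymal genes have a median of 4.75 at day 5.

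Other cell types and states moved in the same RNAs. In the sorts, all 6 goblet markers measured were lower in GFPhi cells, with medians of -1.85 and -1.71, and so were all 5 enteroendocrine markers, with medians of -2.06 and -2.35. Dll1 and Dll4 were lower in those same GFPhi RNAs. At day 3 all 7 cell cycle genes were lower in the deleted epithelium (median -1.19), all 5 Paneth genes were lower (median -1.35) and 7 of 8 leukocyte genes were higher (median 0.33). At day 5 the cell cycle median was 0.08 and the Paneth median 0.20, but 5 of 6 mesenchymal genes were higher, with a median of 4.75 and a highest value of 5.28. The summed mesenchymal level at day 5 was 13.77 in the deleted and 9.39 in the control RNA on the log2 intensity scale, and at day 3 it was 10.13 and 10.56. In these bulk RNAs fewer cells of a type and less RNA per cell cannot be told apart, and the part of these cell types and of proliferation in the Notch values was not tested. Notch1, Dll4 and Jag1 are also made by blood vessels, and of 8 endothelial markers 7 were below background in both RNAs of both sorts. Esam, the eighth, read 0.43 and 0.66 in the sorts. In the deletion 2 of the 8 (Cdh5 and Tie1) were below background in both RNAs at day 3 and 3 (also Pecam1) at day 5, and the others were detected on some arrays. Esam and Cldn5, the 2 tested there, read -0.31 and -0.04 at day 3, and the summed endothelial level was 9.34 in deleted and 9.45 in control RNA at day 3 and 9.27 and 9.30 at day 5.

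The genes with the most similar values were sought for the 2 members with the largest ratios, measured as the root mean square over the 4 RNA pairs (0.49 for Dll1 and 0.42 for Hes1). Likeness was the Euclidean distance over the 4 log2 ratios among 8989 genes tested in both comparisons. Nearest to Dll1 was Hmx2 at a distance of 0.13, with -0.70 and -0.67 in the sorts, 0.09 at day 3 and -0.34 at day 5, followed by Klk1b3 (0.17) and Fbxl16 (0.18). Nearest to Hes1 was Tsc22d1 at 0.19, with -0.13 and 0.26 in the sorts and -0.31 and -0.54 on the 2 days, followed by Foxa3 (0.22) and Hsh2d (0.25). These distances describe 4 values per gene and were not tested.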

How the data were processed

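RNA isolated with Trizol was labelled by linear amplification from 500 ng, per the labels' protocols. The scanner files, written by Agilent Feature Extraction 9.5.3.1, hold spot intensity on a linear scale (mean foreground and median local background per dye) and a log10 ratio of Agilent's processed signals, per the file headers. The authors deposited log2 ratios in a series matrix. Its columns correlated with the turned scanner ratios at r of 0.964 or more, with medians from -0.0248 to 0.0306, while its centring and spot filter stay unknown. Day 5 files hold values rounded to 3 significant digits, so annotation came from day 3 files by feature number.

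Background was corrected with normexp (offset 50) and ratios with loess within each array, with control spots at weight 0 and outlier spots left out. Between 1102 and 1835 spots per array with an outlying local background were also left out of the normexp fit. This was decided after seeing that a fit on all spots raised the median log2 intensity of the sort 2 arrays from 6.18 and 6.17 to 9.27 and 8.97, and of 1 day 5 array from 7.02 to 8.02. The labelled dyes set the direction, with GFPhi or deleted RNA in the numerator. Gene names came from RefSeq accessions where matched (23374 of 41174 probes). A gene was its brightest probe.

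Both arrays of an RNA pair were averaged. All 4 RNA pairs were fitted with limma 3.58.1 (R 4.3.3; lmFit, eBayes; prior of 2.33 degrees of freedom and SD 0.178), with 1 coefficient per comparison, two-sided p values, Benjamini-Hochberg adjustment over all genes tested and a threshold of 0.05. The day difference had a coefficient per day. An exact two-sided sign test over 2 RNA pairs cannot go below p = 0.5 and was not made. The number of arrays limits the precision, and p values reflect only how these RNA extracts varied, which may be technical. Functions were tested on simulated data. Mean levels per RNA come from the A-quantile method between arrays.

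Named by rule were the 10 members on every array, other pathway genes with 1 sign and at least 1.5-fold on all 4 arrays of a comparison or with days at least 2-fold apart, Lgr5 and Ascl2, marker lists as counts, and the 3 nearest genes of 2 members. The members and lists were chosen with earlier results of these data known. Alternatives covered background, normalization, signals, filters, probes, dyes, blocks and left-out RNA pairs.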

Additional observations from a re-analysis of the deposited data

Results flagged for a closer look

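The deletion ratio differed between day 3 and day 5, past the limma test of that difference, for 1 of the 10 Notch genes and 12 of 50 other pathway genes tested. The difference, day 5 minus day 3 on the log2 scale, was 0.71 for Hes5. Above 0 it was also 0.59 for Dlk2 and 0.63 for Hdac2. Below 0 it was -1.08 for Hes2, -0.96 for Itch, -0.88 for Heyl, -0.84 for Cir1, -0.77 for Furin, -0.71 for Tle3, -0.69 for Numb, -0.64 for Dtx1, -0.62 for Neurl1a and -0.61 for Mib2. Over all genes tested, 29.9% were called. With 1 RNA pair per day, the day, the slide and the animals cannot be told apart, and the cell cycle, Paneth, leukocyte and mesenchymal markers differed between the same RNA pairs.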

How the results depend on the processing

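Of the values of single members under alternatives, 369 kept their direction and side of the threshold, 18 gained and 4 lost a call. Another 16 turned direction without a call. In the sorts these were Jag1 at 0.02 and Hes6 at -0.04 with GFPhi in Cy5 only, Hes1 at -0.01 and Hes5 at -0.01 with GFPhi in Cy3 only, Hes1 at -0.03 and Hes5 at -0.02 without sort replicate 2 (0.30 and 0.15 without sort replicate 1), and Hes5 at -0.01 with normexp fitted on all spots, an alternative added after seeing the data. In the deletion they were Notch2 at -0.01, Dll4 at -0.01, Jag1 at 0.00 and Lfng at 0.02 with the deleted RNA in Cy5 only, Notch2 at -0.08, Dll4 at -0.01 and Hes5 at 0.18 without day 3, Lfng at 0.14 without day 5, and Notch2 at -0.09 in the series matrix.

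Counts of genes called by limma moved more. For the sorts, 0 became 213 with the RNA pair as a random block and 1864 with the sorts alone or without either deletion day. For the deletion, 0 became 300 with the block, 2048 without day 3 and 5884 without day 5. The fits of 1 comparison or day take no spread from the difference between the days, and for the block the cause was not tested. With the deleted RNA in Cy5 only the deletion count was 2; the cause was not tested. The 4656 genes called for the day difference became 1796 with the series matrix, 742 with median centring, 1780 and 2674 with 1 dye orientation, and 0 with Agilent's processed signals (3009 at an unadjusted p under 0.05); the cause was not tested.

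Members higher on all 4 sort arrays (2) numbered 1 in the series matrix, which has blanks for some members, and 4 with sort 2 or GFPhi in Cy5 alone. Those lower (3) numbered 1 in the series matrix. In the deletion the 0 higher became 3 at day 3, 1 at day 5 and 1 with deleted RNA in Cy3, and the 2 lower became 5 at day 3, 6 at day 5, 5 with deleted RNA in Cy5 and 1 with median centring. Counts by day, sort or values were added after seeing the data. A fit with slide as a block was not run, since each slide holds 1 RNA pair, and no day fit was possible without a sort. No paired analysis was possible because each value is already a ratio of the 2 RNAs of a pair, and the replicate numbers tie no sort to a deletion day.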
